A study of Allium sativum with 84 samples.

Results

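Enlarging bulbs of garlic accessions collected in southern China were compared with those of accessions from the North China Plain. Accessions were chosen by the collection site in their labels alone. The South held 12 accessions, 3 from Guizhou, 3 from Sichuan, 2 from Yunan (the spelling of the labels) and 1 each from Guangxi, Hunan, Hubei and Taiwan. The North China Plain held 24, of which 15 came from Shandong, 4 from Hebei, 4 from Henan and 1 from Tianjin. These 36 accessions were part of a collection of 84, and the other 48 came from other sites. All were grown over the same winter on 1 farm in Shandong, with no treatment or genetic change given in the labels, and bulbs were taken in spring while they enlarged. Each accession gave 1 library of RNA from pooled bulbs, so accessions and not plants were the units of every comparison. An accession is called here by its site and its number in the order of the samples, for example Sichuan 2. Cell types were not separated, so less RNA per cell and fewer cells of a type cannot be told apart. The files did not pair gene IDs with names, and markers of bulb tissue could not be checked.

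Garlic is sterile and is propagated from its cloves, which are swollen axillary buds of the bulb. In the related onion, long days start bulbing through genes of the FT family, which encode mobile signals made in the leaf. Gibberellins, growth hormones held in check by DELLA proteins, and auxin, which takes part in the control of bud outgrowth, act beside day length. Southern and northern sites differ in day length and winter cold, and in the present data accessions of both were measured in the environment of a northern site.

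Transcript abundance was given as FPKM, the fragments of a gene divided by its length and by the depth of its library. Of 57561 genes, 44332 were detected (above 0 FPKM) in 1 or more of the 36 accessions and 24240 in all of them, with 32276 to 35616 genes above 0 in a library. The depth of a library relative to that of the first column, recovered from the steps that single reads leave in low values, ran from 0.449 to 0.976, a 2.17-fold range, and the absolute depth of a library was not given in the files. Mean relative depth was 0.616 ± 0.190 (SD, n = 12) in the South and 0.539 ± 0.0716 (SD, n = 24) on the North China Plain (difference 0.0765, two-sided permutation test, p = 0.0836). The medians were close, 0.521 in the South and 0.513 in the North. In the South, Yunan 1 (0.976), Guizhou 3 (0.919) and Sichuan 2 (0.886) were the deepest. The number of genes above 0 FPKM was 33978 ± 1057 (SD) in the South and 33405 ± 1020 (SD) in the North (difference 574, two-sided permutation test, p = 0.124). No pair of libraries held identical values. Sichuan 2 and Shandong 8 stood apart from the others on the third expression component (scores 175.3 and 135.6). The values that leaving them out moved most are given beside the results. They were also the first of the 36 in the order of the columns, in columns 5 and 3. Shandong 1, Guizhou 1, Shandong 15 and Hebei 1, in columns 12 to 19, scored 27.3 to 41.2. From column 25 on, scores ran from -42.2 to 36.1. The labels do not say what the column order stands for, and its part in these scores was not tested.

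The main comparison asked which genes differ between garlic of the South and of the North China Plain when both grow side by side. In the South, no gene was higher or lower beyond the spread among accessions after adjustment. Each of the 33360 genes that reached 1 FPKM in 4 or more of the 36 accessions was fitted with limma on log2(FPKM + 1), and with the Benjamini-Hochberg adjustment 0 genes (0%) passed 0.05 in either direction. The smallest adjusted p was 0.136. At an unadjusted p under 0.05 there were 1450 genes (4.35% of those tested) with higher values in the South and 3040 (9.11%) with lower values. Without Sichuan 2 and Shandong 8 limma likewise called 0 genes, with 7017 at an unadjusted p under 0.05. An ordinary analysis of variance per gene also called 0 genes, with 4303 at an unadjusted p under 0.05. In a further fit the columns were split into blocks, with the first ending at column 7 and the second at column 23. With the block as a covariate limma called 0 genes, with 6238 at an unadjusted p under 0.05 and a smallest adjusted p of 0.0558. In 0 genes (0%) did the 12 southern values lie wholly above or wholly below the 24 northern ones. The split between higher and lower genes moved with the scaling of the libraries. Among the genes at an unadjusted p under 0.05, 32.3% were higher in the South as deposited, 53.4% (2232 higher, 1946 lower) after median-ratio scaling, 44.2% (1806 higher, 2280 lower) after quantile normalization and 49.8% (2825 higher, 2848 lower) with relative depth as a covariate. The excess of genes with lower southern values was thus not kept under every scaling. With accession weights, which limma estimates from how far each library departs from its group, 11608 of the 33360 genes passed. Of these, 6061 were higher and 5547 lower in the South. The median weight was 2.08 for the 16 northern accessions above 0 on the first expression component and 0.547 for the other 8, against 0.474 for the 4 southern accessions above 0 and 1.15 for the other 8. The fit with weights therefore counted mostly the northern accessions above 0 and the southern ones below 0, and its calls were not read as differences between the regions.

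A single gene crossed the adjusted threshold under some settings, and 3 such genes are named although they were chosen after their values were seen. None of them has a name in the sources used here. Asa0G04342.1 had the smallest unadjusted p. It was listed at 0 in 3 of 12 southern accessions and in none of the 24 northern ones. Its FPKM ran from 0 through a median of 0.823 to 6.17 in the South and from 0.683 through 3.84 to 7.70 in the North. Values were thus lower in the South, with 11 of 12 southern accessions below the northern median, yet the ranges overlapped. The difference was -1.27 ± 0.240 (log2 ± SE, South minus North), with an adjusted p of 0.136 (limma), 0.0393 without Shandong 15 and 0.0043 without Guangxi 1. Asa7G04396.1 ran from 0 through 2.96 to 5.85 FPKM in the South and from 0.797 through 7.70 to 13.2 in the North. All 12 southern accessions were below the northern median. Its difference was -1.11 ± 0.236 (log2 ± SE), with an adjusted p of 0.192 (limma) and 0.0272 without Henan 3. Asa4G05664.1 lay the other way, from 28.9 through 32.97 to 42.1 FPKM in the South and from 19.1 through 26.5 to 34.7 in the North, with all 12 southern accessions above the northern median. Its difference was 0.335 ± 0.0780 (log2 ± SE), with an adjusted p of 0.347 (limma) as deposited and 0.0231 after median-ratio scaling. With the first component as a covariate the adjusted p (limma) was 0.264 for Asa0G04342.1 and 0.529 for both Asa7G04396.1 and Asa4G05664.1. The largest adjusted p (limma) over the alternatives run was 0.823 for each of the 3.

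The accessions of both regions fell into the same 2 separate clusters of expression. On the first component of the 36 accessions, which held 41.4% of the variance, no accession lay between -77.2 and 66.0. In the South, 8 of 12 accessions (66.7%) were below 0, namely all 3 from Guizhou, Sichuan 1 and 3, Yunan 2, Hunan 1 and Taiwan 1. Sichuan 2, Yunan 1, Guangxi 1 and Hubei 1 were above 0. On the North China Plain, 8 of 24 (33.3%) were below 0, namely Shandong 1, 4, 8, 12 and 15, Henan 1 and 3, and Hebei 1. Sichuan, Yunan, Shandong, Henan and Hebei each contributed accessions to both clusters, and the 3 of Guizhou lay in 1. The mean position was -0.428 SD of the scores in the South and 0.214 SD in the North, a difference of -0.641 SD (two-sided permutation test, p = 0.067). This difference was -0.795 SD (p = 0.0323) without Sichuan 2 and Shandong 8, and p was 0.0497 without Hebei 1, 0.0442 without Guangxi 1, 0.0418 without Hubei 1 and 0.0432 without Yunan 1. With the means of the sites as units it was -0.604 SD (p = 0.236), after median-ratio scaling -0.623 SD (p = 0.0743), and without any 1 accession p was at most 0.123.

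**Figure D1:**
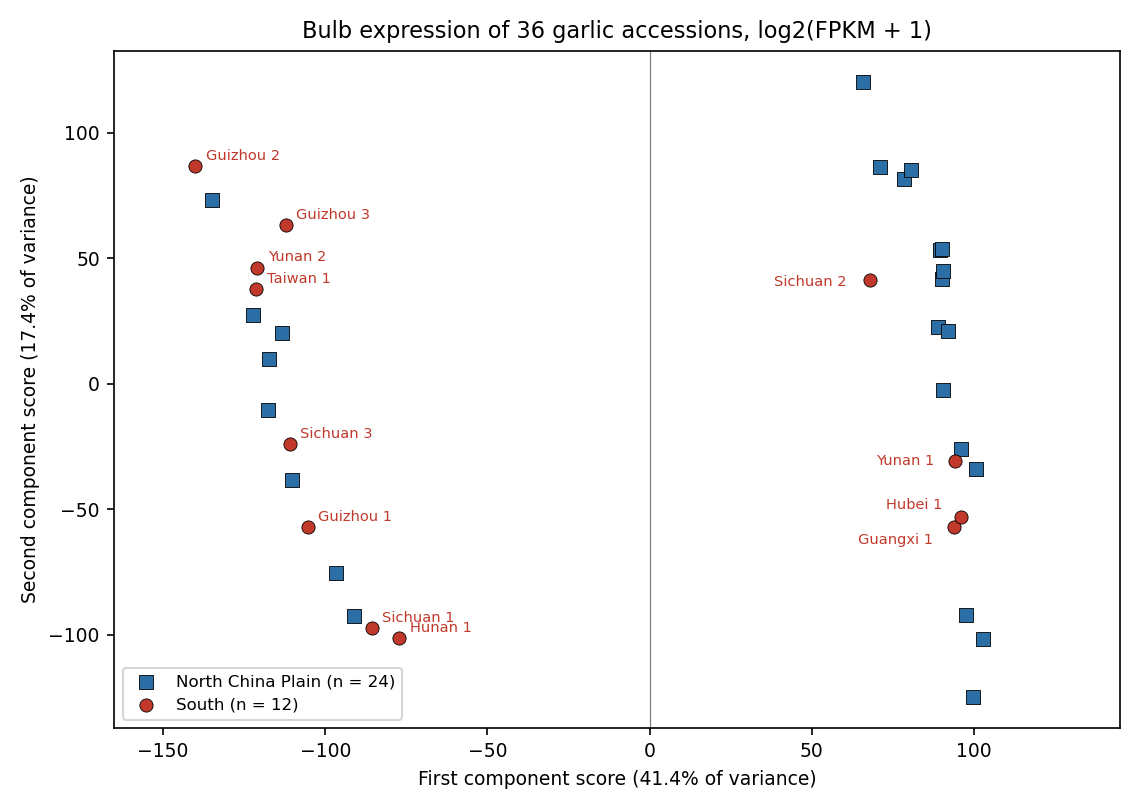
Scores of the 36 accessions on the first and second expression components of log2(FPKM + 1), with 12 southern accessions as labelled circles and 24 northern ones as squares. Both regions appear on both sides of 0 on the first component, with 8 of 12 southern and 8 of 24 northern accessions on the left.

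Of all expression variance among the 36 accessions, 5.32% lay between the regions, where 2.86% is expected without a difference (one-sided permutation test, p = 0.0766). The share was 7.78% (p = 0.0299) without Sichuan 2 and Shandong 8, and 5.36% (p = 0.149) by correlation distance. Southern accessions were on average 161 log2 units from the centre of their region and northern ones 149, a difference of 11.3 (two-sided permutation test, p = 0.205).

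The most similar accession lay in the other region for 8 of 12 southern and 6 of 24 northern accessions. Across the tested genes the median correlation was 0.835 over the 66 southern pairs, 0.849 over the 276 northern pairs and 0.818 over the 288 pairs between regions. These values are across genes, which share libraries and are not independent, and are given without a test. For 8 of the 12 southern accessions the most similar of the other 35 was a northern one. The share with a southern nearest neighbour was 33.3%, beside 31.4% of the other accessions being southern. Of the 24 northern accessions, 6 (25%) had a southern nearest neighbour, beside 34.3%. The most alike pair across the regions was Guangxi 1 with Shandong 7 (r = 0.973). Yunan 2 and Shandong 12 were nearest to each other (r = 0.953), as were Guizhou 1 and Shandong 15 (r = 0.951). In all 36 cases the nearest accession lay on the same side of the first component.

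The genes with the largest differences at an unadjusted p under 0.05 are given as values only, since none passed the adjusted test. Of the pair with higher values in the South, Asa2G05822.1 ran from 8.26 through a median of 597 to 6510 FPKM in the South and from 0.183 through 24.2 to 6123 in the North. Southern values were mostly high, with 11 of 12 above the northern median, and the ranges overlapped. The highest northern value was that of Shandong 8, followed by 3664.5 in Shandong 15. By site, it was 2489 FPKM in Guangxi 1 and 601 in Hubei 1, from 173 to 3433 in Sichuan from 107 to 1161 in Yunan, 163 in Hunan 1, 30.5 in Taiwan 1 and from 8.26 to 6510 in Guizhou. In the North it was 0.622 in Tianjin 1, 0.609 to 294 in Hebei, 5.89 to 1781 in Henan (median 877) and 0.183 to 6123 in Shandong (median 24.1). The difference was 3.08 ± 1.32 (log2 ± SE, adjusted p = 0.356, limma), a fold of FPKM + 1 of 1.32 to 54.3 in its unadjusted 95% interval. It was 3.11 without Sichuan 2 and Shandong 8, and 2.52 with the first component as a covariate (adjusted p = 0.774, limma).

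Asa6G01293.1 was listed at 0 in 4 of 12 southern and 16 of 24 northern accessions, and the other 16 accessions had 58.8 to 187 FPKM. The values thus fell into on and off, and the accessions with values above 0 were those below 0 on the first component in every case, 8 from the South and 8 from the North. Above 0 were all 3 accessions of Guizhou, 2 of 3 of Sichuan, 1 of 2 of Yunan, 5 of 15 of Shandong, 2 of 4 of Henan and 1 of 4 of Hebei. Among the 44332 genes detected in the 36 accessions, 1265 were above 0 in exactly these 16, 718 of them with at least 1 FPKM in each. The opposite pattern, above 0 in exactly the other 20, was seen in 409 of the 44332. Of the 409, 231 had at least 1 FPKM in each of the 20. The difference of Asa6G01293.1 between regions was 2.38 ± 1.11 (log2 ± SE, adjusted p = 0.363, limma), and 0.241 with the first component as a covariate.

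Both genes with the largest lower values in the South showed the reverse split. Asa6G02606.1 had 171.6 to 399 FPKM in 4 southern and 16 northern accessions and at most 6.80 in the other 16. Its median was 3.87 FPKM in the South and 238 in the North, and 11 of 12 southern accessions were below the northern median. Its difference was -2.39 ± 1.03 (log2 ± SE, adjusted p = 0.357, limma), and -0.442 with the first component as a covariate. Asa5G05556.1 had 1281 to 4697 FPKM in 4 southern and 16 northern accessions and 7.19 to 87.6 in the rest. Its median was 31.6 FPKM in the South and 1869 in the North. The difference was -2.36 ± 1.13 (log2 ± SE, adjusted p = 0.367, limma), and -0.225 with the first component as a covariate. In each of these genes both regions held both levels, in unequal numbers. Without Sichuan 2 and Shandong 8 the differences were 2.96 for Asa6G01293.1, -2.96 for Asa6G02606.1 and -2.88 for Asa5G05556.1, with adjusted p of 0.159, 0.159 and 0.166 (limma).

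**Figure D2:**
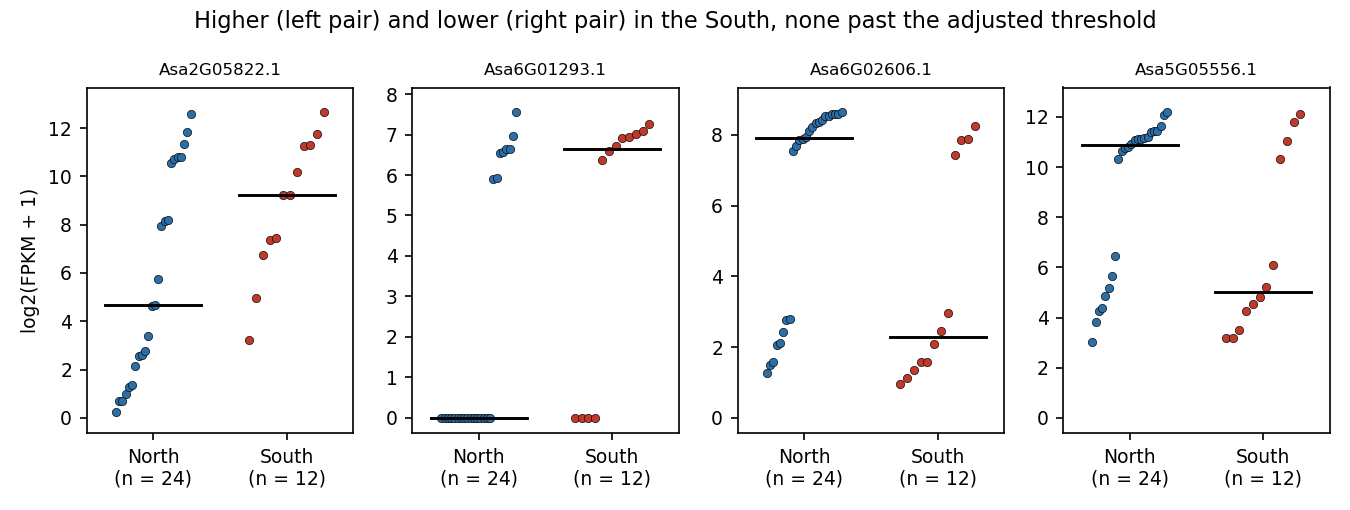
Transcript abundance, log2(FPKM + 1), of the 4 genes in each of 24 northern and 12 southern accessions, sorted within a region, with a line at the median. Asa6G01293.1 is at 0 in 16 northern and 4 southern accessions, and the high level of Asa6G02606.1 and Asa5G05556.1 is held by 16 northern and 4 southern accessions.

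Fewer genes had an unadjusted p under 0.05 once the first component entered the fit. With that component as a covariate, 2219 genes (6.65% of those tested) had an unadjusted p under 0.05 and 0 passed the adjusted test (limma, smallest adjusted p 0.264). Of the 4490 genes at an unadjusted p under 0.05 without the covariate, 1248 (27.8%) kept their direction and an unadjusted p under 0.05 with it. The covariate comes from the same values, so these counts describe the fit and test nothing independent of it.

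The study named 14 genes in its account of bulb growth. Of these, 13 were tested, 0 passed (0% of all tested genes did), 7 had higher and 6 lower mean values in the South, and their median log2 difference was 0.0244, beside -0.0198 over all tested genes, of which 15611 were higher and 17749 lower. At an unadjusted p under 0.05 there was 1 (7.69%), beside 13.5% of all tested genes. No direction can be given to any of the lists, since none of their members passed. The study compared genetic groups and stages of bulb growth, not regions of collection, and its comparisons were not tested here.

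Of the gibberellin genes, Asa2G00237.1 is a homolog of rice SLR1, a DELLA protein that represses gibberellin responses. Its FPKM ran from 0.580 through 1.17 to 2.12 in the South and from 0.662 through 1.67 to 2.82 in the North. Southern values were mostly on the low side, with 9 of 12 accessions below the northern median, and the ranges overlapped almost wholly. The difference was -0.22 ± 0.128 (log2 ± SE, adjusted p = 0.422, limma), an unadjusted 95% interval of 0.716-fold to 1.03-fold, and -0.215 with the first component as a covariate. Tianjin 1 had 2.06 FPKM and the Hebei accessions 1.44 to 2.197, while the lowest value of all was in Yunan at 0.580. A median of 34.5 reads stood behind each value, with 16 in the lowest library.

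Asa6G01110.1 is an ortholog of potato BEL5, a transcription factor with a mobile transcript that promotes tuber formation. It ran from 47.5 through 128.97 to 298 FPKM in the South and from 19.2 through 127.9 to 195.98 in the North, so the medians were alike (difference 0.114 ± 0.294, log2 ± SE, adjusted p = 0.90, limma, -0.013 to 0.225 without 1 accession and 0.0518 without Sichuan 2 and Shandong 8). Its southern values spread widely, from 47.8 in Guangxi 1 to 223 in Taiwan 1, and from 55.0 to 298 within Guizhou.

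Asa0G05638.1 was annotated by the study as GA 20-oxidase, in general an enzyme of gibberellin synthesis. It was among the most abundant of these transcripts, from 647 through 1645 to 3286 FPKM in the South and from 669 through 1010 to 3631 in the North. Guizhou (2028 to 3286) and Taiwan 1 (2491) were high and Guangxi 1 (647) and Hubei 1 (742) low, with 8 of 12 southern accessions above the northern median. The difference was 0.325 ± 0.258 (log2 ± SE, adjusted p = 0.583, limma), and -0.0354 with the first component as a covariate. The other GA 20-oxidase, Asa4G02474.1, was not tested because it reached 1 FPKM in 0 accessions. It was listed at 0 in 7 southern and 11 northern accessions, at a median of 0.5 reads and at most 14, and a difference was not tested.

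Of the photoperiod genes, Asa6G06199.1 is FT-like. It ran from 1.13 through 4.60 to 11.9 FPKM in the South and from 0.372 through 4.42 to 13.7 in the North. The medians were close and 6 of 12 southern accessions were above the northern one. Hunan 1 (11.9) and a Guizhou accession (11.1) were high, and the lowest southern value (1.13) was from Yunan, whose other accession had 9.47. The difference was 0.204 ± 0.283 (log2 ± SE, adjusted p = 0.789, limma), an unadjusted interval of 0.775-fold to 1.71-fold of FPKM + 1. Without 1 accession it was 0.0992 to 0.336.

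Asa2G00681.1 resembles ELF4, a part of the evening complex of the circadian clock in Arabidopsis. It ran from 10.2 through 41.6 to 138 FPKM in the South and from 14.1 through 35.9 to 114.03 in the North (difference -0.176 ± 0.300, log2 ± SE, adjusted p = 0.838, limma, and -0.357 to -0.0263 without 1 accession). Asa8G01471.1 is a homolog of CDF2, a Dof factor that represses flowering in Arabidopsis. It ran from 9.17 through 19.8 to 49.0 FPKM in the South and from 0.832 through 17.6 to 33.5 in the North (difference 0.303 ± 0.281, log2 ± SE, adjusted p = 0.654, limma). The lowest northern value was that of Shandong 8, and the next was 9.76. The difference was 0.162 without Shandong 8, 0.192 without Guizhou 3 and 0.228 without Sichuan 2 and Shandong 8. For these genes the difference was about as large as its standard error or smaller, and the ranges overlapped. The highest values of the CDF2 homolog were from Guizhou, where its median was 38.5 and its lowest value 9.17.

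TGA4-like Asa2G04763.1 and Asa6G01159.1 encode bZIP transcription factors. Their medians were 22.2 and 1.079 FPKM in the South and 20.7 and 0.768 in the North, with log2 differences of -0.0159 ± 0.373 (adjusted p = 0.993, limma) and 0.0478 ± 0.235 (adjusted p = 0.952). The intervals reached from 0.585-fold to 1.67-fold for the first and from 0.743-fold to 1.44-fold for the second. Without Sichuan 2 and Shandong 8 the difference of Asa2G04763.1 was -0.0713.

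**Figure D3:**
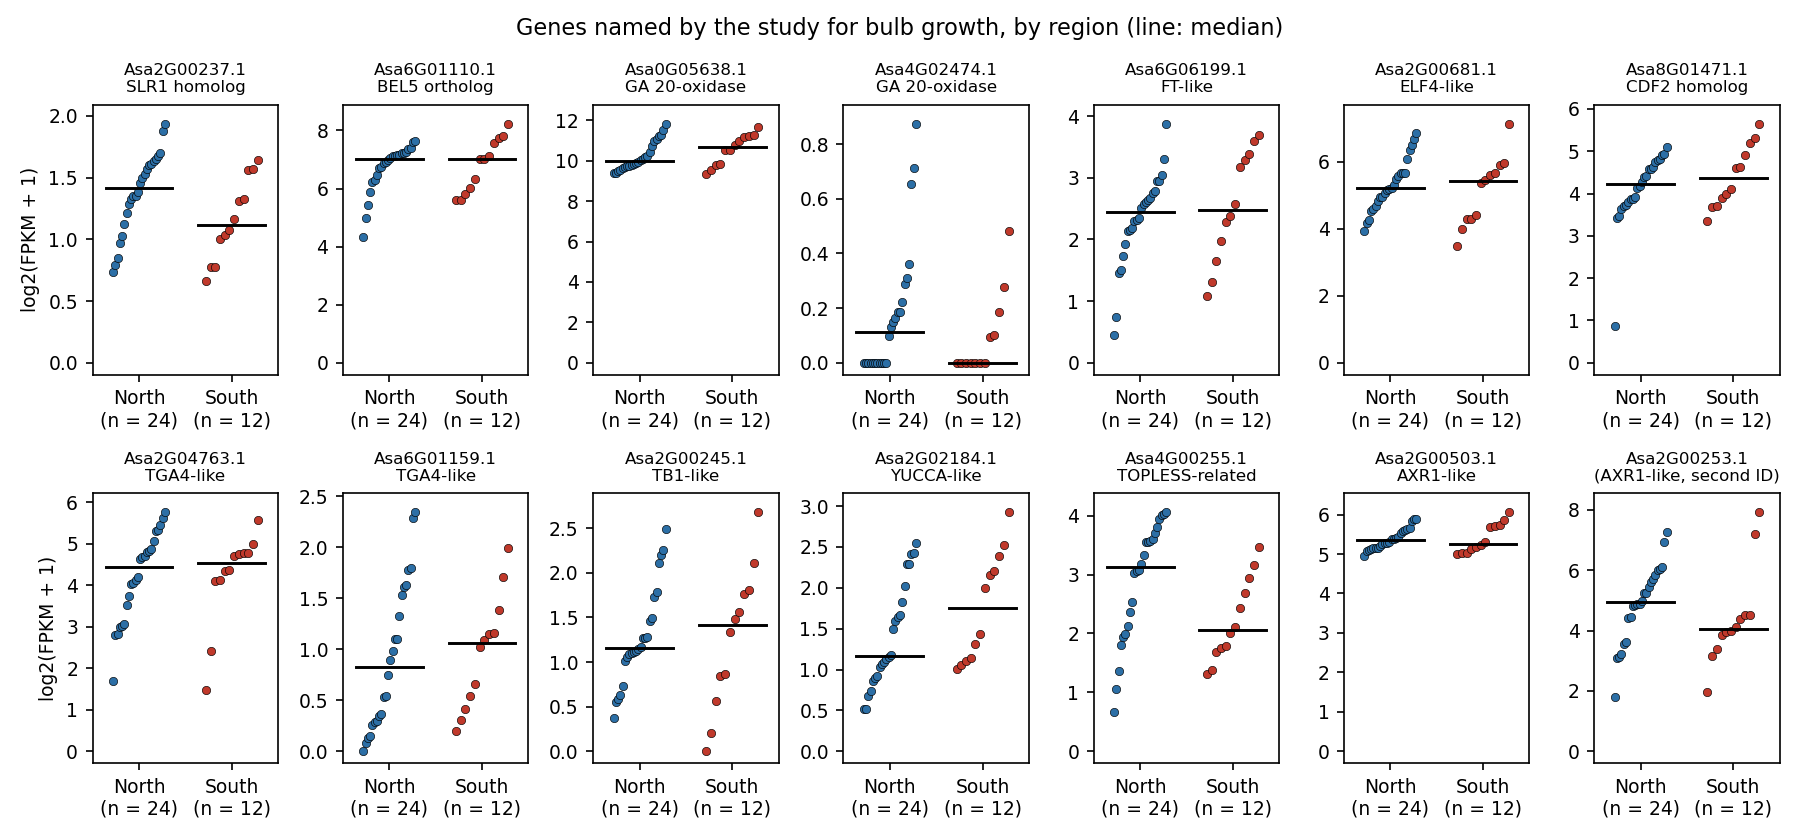
Transcript abundance, log2(FPKM + 1), of the 14 genes named by the study, with 24 northern and 12 southern accessions sorted within a region and a line at the median. The ranges of the regions overlap in every panel, and the TOPLESS-related gene has medians of 7.76 FPKM in the North and 3.17 in the South.

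Among the genes for bud outgrowth and auxin, TOPLESS-related Asa4G00255.1 had the smallest p. TOPLESS proteins are co-repressors that silence targets of auxin and other signals. It ran from 1.48 through 3.17 to 10.1 FPKM in the South and from 0.586 through 7.76 to 15.6 in the North. Southern values were mostly low, with 10 of 12 below the northern median. The exceptions in the South were Guangxi 1 at 10.1 and a Yunan accession at 7.96, and the lowest value of all was in Shandong 8. The difference was -0.66 ± 0.318 (log2 ± SE, unadjusted p = 0.0439, adjusted p = 0.367, limma), an unadjusted interval of 0.404-fold to 0.987-fold of FPKM + 1. It was -0.802 (adjusted p = 0.161) without Sichuan 2 and Shandong 8 and -0.140 with the first component as a covariate.

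YUCCA-like Asa2G02184.1 belongs to a family of auxin-synthesis enzymes. It ran from 1.01 through 2.36 to 6.58 FPKM in the South and from 0.429 through 1.25 to 4.84 in the North, with 8 of 12 southern accessions above the northern median. Guizhou 2 held the highest value, and Sichuan 2 (1.01), Yunan 1 (1.07), Guangxi 1 (1.16) and Taiwan 1 (1.21) were below the northern median. The difference was 0.356 ± 0.230 (log2 ± SE, adjusted p = 0.48, limma), and 0.00453 with the first component as a covariate. Its values rested on a median of 13 reads.

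TB1-like Asa2G00245.1 resembles maize TB1, a transcription factor that holds back bud outgrowth. It ran from 0 through 1.66 to 5.39 FPKM in the South and from 0.299 through 1.24 to 4.63 in the North (difference -0.0245 ± 0.228, log2 ± SE, adjusted p = 0.978, limma, and -0.0827 without Sichuan 2 and Shandong 8). AXR1-like Asa2G00503.1 resembles a subunit of the enzyme that starts RUB conjugation in auxin signalling. It had the smallest standard error of the 13 tested, from 30.8 through 37.4 to 65.4 FPKM in the South and from 29.8 through 39.7 to 58.5 in the North. Its difference was 0.0244 ± 0.111 (log2 ± SE, adjusted p = 0.948, limma), an unadjusted interval of 0.871-fold to 1.19-fold of FPKM + 1. It was -0.0466 without Sichuan 2 and Shandong 8. The study also printed the AXR1-like gene under the ID Asa2G00253.1, whose median was 15.5 FPKM in the South and 29.5 in the North. In the South, 10 of 12 accessions were below the northern median, but the highest value of all was 239.5 FPKM in Sichuan 2, followed within the South by Hubei 1 at 144.7. The difference was -0.469 ± 0.483 (log2 ± SE, adjusted p = 0.695, limma), and -0.787 without Sichuan 2, -0.722 without Hubei 1, -0.246 without Guizhou 1 and -0.734 without Sichuan 2 and Shandong 8.

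**Figure D4:**
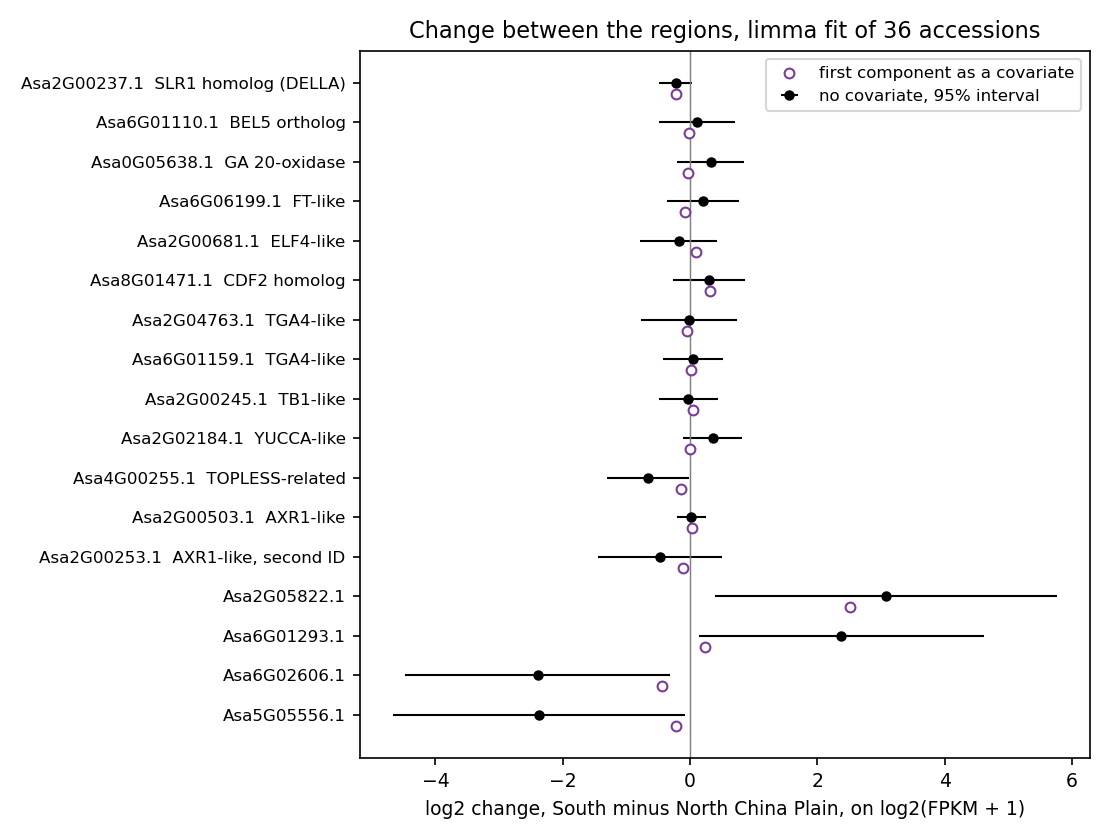
Log2 difference (South minus North China Plain) of the 13 tested study-named genes and the 4 genes chosen by size, with unadjusted 95% intervals from the limma fit as black points and bars and the difference with the first component as a covariate as open circles. With the covariate, Asa6G01293.1 moved from 2.38 to 0.241 and the TOPLESS-related gene from -0.66 to -0.14, while Asa2G05822.1 moved from 3.08 to 2.52.

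No gene was expressed throughout 1 region and absent from the other. By the definition of the study (0 FPKM throughout 1 region and above 0 in over 90% of the other), 0 genes were on only in the South and 0 only in the North. Without that share, 979 of the 44332 genes detected in the 36 accessions were above 0 only in southern accessions. Of the 979, 755 were in 1 accession and none was in more than 6 of 12. At least 1 FPKM was reached by 73 of the 979, and the highest value was 40 FPKM. Only in northern accessions there were 1983 of the 44332, of which 1129 were in 1 accession, none in more than 16 of 24. Here 141 reached 1 FPKM, with a highest value of 37.3 FPKM. The number of accessions differs between the regions, so these counts cannot be set against each other.

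Genes at an unadjusted p under 0.05 lay on every chromosome, and they followed each other in the same direction more often than their shares among all tested genes. Gene IDs are numbered along the chromosomes, and of the 4490 genes at an unadjusted p under 0.05, 549 (12.2%) were followed by a tested gene that also had an unadjusted p under 0.05 in the same direction, beside 4.35% and 9.11% of all tested genes in each direction. The longest run was 5 genes. The share of genes at this p was between 12.7% and 14.3% on chromosomes 1 to 8 and 16.6% among the unplaced genes numbered 0. Neighbouring genes are not independent, and no test was made.

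The other 48 accessions, which did not enter the fit, lay nearer to the North China Plain in 3129 of the 4490 genes (69.7%), beside 61.4% of all tested genes. For the 32 of them from China the shares were 80% and 66.1%. The northern mean rests on more accessions (24 against 12) and on another mix of the 2 clusters, and the part of either in these shares was not tested.

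Comparisons within the regions gave 0 calls as well. Between the 15 Shandong and the 9 other northern accessions, 0 of 32172 genes (0%) passed the adjusted test in limma, with 170 (0.528%) at an unadjusted p under 0.05. Between the 8 southwestern accessions (Yunan, Sichuan and Guizhou) and the 4 other southern ones, 0 of 29941 (0%) passed, with 865 (2.89%) at an unadjusted p under 0.05. When accessions were weighted, 0 genes passed in the first of these comparisons and 8886 of 29941 in the second. These 8886 calls were not read as a difference between southern sites.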

How the data were processed

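RNA of enlarging bulbs was sequenced by the authors in 84 accessions, and the 36 from the South or the North China Plain were compared by collection site. The authors aligned clean reads to the garlic reference with HISAT2 (the submitters' processing notes give version 2.2.1.0), and the deposited values are FPKM per gene. The program that counted reads was not given in the sources used here, and neither was the total used for scaling. The labels and the study differ in the number of bulbs pooled, and the numbers of accessions differ too. The p-values measure regions against the spread among accessions, whose relatedness was not modelled.

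FPKM are not counts, so log2(FPKM + 1) was tested in limma (version 3.58.1, under R 4.3.3) with trended prior variance, two-sided, with Benjamini-Hochberg adjustment over the 33360 genes that reached 1 FPKM in 4 or more of the 36 accessions and a threshold of 0.05. Differences are on this log2 scale and folds are of FPKM + 1, where the added 1 shrinks those of low genes. The analysis of variance per gene that the study used was run as an alternative. Variance shares came from vegan 2.7.1 with 9999 permutations, and tests of a single value used 100000 resamples. Relative depth was the commonest ratio of low FPKM between a library and the first column, and recovered reads were accepted within 0.05 of a whole number for 11 of 18 genes. The limma step was run on simulated data with independent genes and no clusters of accessions. That run does not show how many differences it would find in the real values. Figures were drawn with Matplotlib 3.10.9 in Python 3.11.15.

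Genes named in the text were the 14 of the study and, since no gene passed, the 2 highest and 2 lowest in the South at an unadjusted p under 0.05 whose mean reached 1 FPKM. Genes named outside this rule are said to be so. Names come from the text of the study. The regions, lists and tests were chosen with earlier results of these data known. Alternatives covered the pseudocount, filter, scaling, weights, covariates, units, sites and single accessions. The alternatives with the first component as the only covariate and without Sichuan 2 and Shandong 8, and the test of the position on that component, were chosen after seeing the data.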

Additional observations from a re-analysis of the deposited data

Results flagged for a closer look

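Within Hebei and Henan, which have 4 accessions each, 8 of 48 site and measure combinations held an accession far from the other 3. The measures included the first component and genes that follow it, so an accession alone in its cluster can be flagged repeatedly. Correlations with that component were -0.99 for Asa6G01293.1, -0.824 for Asa2G02184.1, -0.752 for Asa0G05638.1 and -0.303 for Asa2G05822.1. The count is therefore set against no chance rate. The measures are not independent, and sites with more or fewer accessions were not tested. Hebei 1 accounted for 5 of the 8. It had 3631 FPKM of GA 20-oxidase Asa0G05638.1 (671.4 to 931.6 in the other Hebei accessions) and 4.318 FPKM of YUCCA-like Asa2G02184.1 (0.4359 to 0.868 in the others). It also had 293.7 FPKM of Asa2G05822.1 (0.6089 to 24.29) and 123.7 FPKM of Asa6G01293.1 (0 in the others). On the first expression component Hebei 1 was at -134.9, with the other Hebei accessions at 88.93 to 92.09. Hebei 4 had a relative depth of 0.6037, with 0.5054 to 0.5202 in the others. Henan 4 had 0.6395 FPKM of GA 20-oxidase Asa4G02474.1, with 0 to 0.07034 in the other Henan accessions. That gene had a median of 0.5 reads and at most 14 in the compared accessions, so this flag rests on few reads. Henan 4 also had a score of 4.981 on the third component, with -18.52 to -15.34 in the others.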

How the results depend on the processing

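Of 21 alternatives that left out no single accession, 19 called 0 genes between the regions, median-ratio scaling called 1 (Asa4G05664.1) and accession weights called 11608. Without 1 accession the count was 0 to 1, with Asa0G04342.1 called without Shandong replicate 15 or Guangxi replicate 1 and Asa7G04396.1 without Henan replicate 3. The genes at an unadjusted p under 0.05, 4490 in the report, numbered 1508 with site means as units, 1903 without Guizhou, 2087 without Shandong, 2219 with the first component as a covariate, 7017 without Sichuan 2 and Shandong 8, and 14448 with accession weights. The genes between southwestern and other southern sites numbered 8886 with accession weights. The cause of these shifts was not tested. Without Sichuan 2 and Shandong 8 the variance share was 7.784% and the position on the first component -0.7952 SD. Leaving out 1 accession moved that position between -0.768 and -0.5786 SD (p = 0.0418 to 0.123, permutation tests) and the difference in relative depth between 0.04376 and 0.09143 (p = 0.0349 to 0.292). The latter had p = 0.0392 without Shandong replicate 5, 0.0491 without Hunan replicate 1 and 0.0349 without Hubei replicate 1. No paired analysis was possible because replicate numbers only follow the order of the accessions.

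Of the study-named genes, 4 passed the adjusted test in limma with accession weights (Asa0G05638.1, Asa2G02184.1, Asa4G00255.1 and Asa2G00253.1) and none in the other fits. Small log2 differences changed sign. Asa6G01110.1 was at -0.1038 with accession weights, -0.01884 with the first component as a covariate, -0.1602 with site means, -0.01217 without Guizhou and -0.01303 to 0.2254 without 1 accession. Asa0G05638.1 was at -0.03543 and Asa6G06199.1 at -0.08331 with the first component as a covariate. Asa2G00681.1 was at 0.09229 with the first component and 0.1682 with 3 components. Asa2G04763.1 was at 0.06488 after median-ratio scaling, 0.04152 with relative depth, 0.1796 with 3 components, 0.01157 without Hebei, 0.004814 without Henan, 0.06486 without Sichuan and -0.1416 to 0.2321 without 1 accession. Asa6G01159.1 was at -0.04762 FPKM untransformed, -0.001944 with 3 components, -0.1518 without Shandong, -0.005402 without Yunan, -0.002039 without Sichuan and -0.04489 to 0.1174 without 1 accession. Asa2G00245.1 was at 0.01524 after median-ratio scaling, 0.1142 FPKM untransformed, 0.0473 with relative depth, 0.07735 with 3 components, 0.04575 with the first component, 0.05531 with site means, 0.01807 without Shandong, 0.2014 without Guizhou and -0.1525 to 0.09084 without 1 accession. Asa2G02184.1 was at -0.009064 with 3 components. Asa2G00503.1 was at -0.02173 with accession weights, -0.05936 with relative depth, -0.04655 without Sichuan 2 and Shandong 8, -0.008711 without Sichuan, -0.01527 without Guizhou and -0.03399 to 0.0625 without 1 accession. Asa2G00253.1 was at 3.462 FPKM untransformed. The 4 genes chosen by size and Asa2G00237.1, Asa8G01471.1 and Asa4G00255.1 kept their sign under every alternative run. Depth limits the genes of few reads, such as Asa4G02474.1, Asa2G02184.1 and Asa6G01159.1 with medians of 0.5, 13 and 17.5 reads.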
